A study of Mus musculus with 6 samples.

Results

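The genes of the G2 phase and of mitosis were followed in long-term haematopoietic stem cells of mice labelled Irf8 knockout and of mice labelled wildtype. The members were taken from a list of 42 mitotic genes, and 41 of them had a probe set that named no other gene, out of 18193 genes measured in this way. Ccnb1 was the member not analysed here. Each gene is represented by the probe set with the highest mean over the 6 arrays, and all its other probe sets are described further on. The cells were sorted from bone marrow as lineage-negative, Sca-1-positive, c-kit-positive, CD48-negative and CD150-positive, and 3 knockout samples and 3 wildtype samples were hybridised, each to its own Affymetrix Mouse Genome 430 2.0 array. All 6 samples are labelled as taken at 3 weeks, untreated and biological replicates, with no word on which animals they came from. The series title writes the genotypes as Irf8-/- and Irf8+/+, and the labels leave out the construct of the knockout allele, the strain, the sex and the number of mice per sample. The p-values therefore measure the spread between these samples only. Values are log2 expression values made by the authors with RMA, so 1 unit is a doubling.

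Cells divide by running through DNA synthesis, a gap phase called G2 and mitosis, and the genes described here are transcribed late in this cycle. In resting cells they are held silent by the DREAM complex, which binds a promoter element called CHR (cell cycle genes homology region), and in dividing cells B-MYB and FOXM1 activate them, often together with NF-Y at CCAAT boxes. Long-term stem cells of adult mice divide rarely, so transcripts of this class are usually scarce in them. The labels do not say whether the 3 weeks are an age. In these samples the members had a median level of 8.11, against 5.81 over all genes. Irf8, the gene labelled as deleted, is a transcription factor of monocyte and dendritic cell development, and its loss in mice is known for an expansion of granulocytes.

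The promoter stretches of 6 members show the elements this gene class shares, and were chosen to set members with lower and with higher values in knockout arrays side by side. Each is the run of 120 bases before the RefSeq transcription start in GRCm38.p6, printed 5′ to 3′ on the gene's strand, with CHR letters (TTTGAA, its reverse complement TTCAAA, or TTCGAA) and CCAAT letters (CCAAT or ATTGG) in capitals. The stretches of Ube2c (chr2:164769809-164769928, plus strand) and Nusap1 (chr2:119618178-119618297, plus strand) belong to genes with lower values in all knockout arrays. Those of Prc1 (chr7:80294356-80294475, plus strand) and Ect2 (chr3:27153879-27153998, minus strand) belong to genes with higher values in all knockout arrays, and those of Cdk1 (chr10:69352913-69353032, minus strand) and Kif11 (chr19:37376262-37376381, plus strand) to genes whose groups overlapped.
Ube2c: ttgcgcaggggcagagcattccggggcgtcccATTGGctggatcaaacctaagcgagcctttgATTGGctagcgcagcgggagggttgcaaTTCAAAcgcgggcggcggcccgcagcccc
Nusap1: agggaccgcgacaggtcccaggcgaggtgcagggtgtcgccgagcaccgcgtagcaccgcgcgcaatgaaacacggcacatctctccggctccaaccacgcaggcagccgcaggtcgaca
Prc1: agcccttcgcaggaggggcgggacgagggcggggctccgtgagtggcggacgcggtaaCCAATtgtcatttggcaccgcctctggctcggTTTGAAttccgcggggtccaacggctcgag
Ect2: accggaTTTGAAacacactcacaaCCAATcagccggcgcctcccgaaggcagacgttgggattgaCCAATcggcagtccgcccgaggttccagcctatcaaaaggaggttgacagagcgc
Cdk1: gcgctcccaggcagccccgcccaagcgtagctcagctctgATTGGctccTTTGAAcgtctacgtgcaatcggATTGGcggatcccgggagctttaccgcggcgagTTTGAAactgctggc
Kif11: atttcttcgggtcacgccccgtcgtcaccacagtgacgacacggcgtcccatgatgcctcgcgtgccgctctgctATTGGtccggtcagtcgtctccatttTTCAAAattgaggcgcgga

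The Ube2c and Prc1 stretches had a similar layout near the start, although the values of these genes lay on opposite sides of wildtype. CHR letters began 29 bases before the start in Ube2c and 30 bases before it in Prc1, and the nearest CCAAT letters began 57 bases before it in Ube2c and 62 in Prc1. Prc1 and Ect2 have 2 listed starts each, and the start whose stretch held more whole motifs was printed. From the other start of Prc1, the one listed first, CHR letters began 5 bases and CCAAT letters 37 bases upstream, so the likeness to Ube2c depends on that choice. Nusap1 held neither motif in its stretch, which says only that these letters are not there. Promoters with 250 bases before the start and 50 after it were listed in RefSeq for 33 of the 41 members, using the start listed first for each gene. Aurkb, Ccna2, Cdc25c, Foxm1, Kif20a, Pbk, Stmn1 and Tpx2 were not among them. CHR letters on either strand were found in 26 of 33 member promoters (78.8%), against 19.4% of the promoters of 27025 genes. CCAAT letters were found in 25 of 33 (75.8%), against 37.9% of all promoters, and both motifs in 23 of 33 (69.7%), against 7.70%. Among other mitotic genes, 41 of 59 promoters (69.5%) held CHR letters and 52.5% held both motifs. In promoters of S-phase genes, CHR letters were found in 7 of 38 (18.4%). The 23 members with both motifs had a median knockout minus wildtype difference of 0.25 and ran from -1.93 to 1.58, and 14 of them lay above 0. The 10 members without both had a median of 0.62 and ran from -3.00 to 1.70, and 7 of them lay above 0.

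Before the members are described, the arrays themselves need a short account. Irf8 read 4.91, 6.39 and 6.50 on the knockout arrays and 4.98, 6.43 and 5.16 on the wildtype arrays, a difference of 0.41 (SE 0.60, adjusted p = 0.92 in limma). On replicate 1 of each genotype it lay under the level of silent genes described below. A second Irf8 probe set read 4.61, 5.48 and 3.83 in knockout and 4.14, 4.02 and 5.08 in wildtype, a difference of 0.23. The labels do not say which part of the gene was deleted, so these values are no check of them. Of 13 stem cell markers that the sorted cells should carry, 11 were measured, and 10, 10 and 8 of them in knockout and 11, 11 and 9 in wildtype read above the level of silent genes described below. Kit, on which the cells were sorted, read 10.46, 8.93 and 8.09 in knockout and 9.38, 9.76 and 9.41 in wildtype. Cd48, against which the cells were sorted, read 7.60, 9.42 and 3.55 in knockout and 4.54, 4.31 and 3.13 in wildtype, and Flt3, a receptor of later progenitors, read 7.99, 8.56 and 10.55 in knockout and 6.93, 6.19 and 6.63 in wildtype. Cd34, another gene of later progenitors, read 9.06, 10.02 and 9.91 in knockout and 8.16, 7.68 and 10.02 in wildtype. Slamf1, which encodes CD150, read 9.02, 8.49 and 4.71 in knockout and 5.97, 9.11 and 6.63 in wildtype. Gfi1b, the gene of this list with the smallest unadjusted p in limma, read 7.72, 7.91 and 9.12 in knockout and 10.42, 10.30 and 10.74 in wildtype. Its difference was -2.24 (SE 0.51, adjusted p = 0.89 in limma), and that of Procr was -0.75 (SE 0.36), both without overlap. Of the 14 measured genes of the whole list, 7 lay above 0. Groups did not overlap for 1 higher gene, Flt3, and 2 lower genes (21.4%), against 10.9% of all genes. Across genes, knockout replicate 3 correlated least with the rest, at a mean of 0.845, where the other 5 arrays ran from 0.873 to 0.893. Of 18 neutrophil and neutrophil progenitor markers, 15 were measured, and all 15 had higher means in knockout. Their summed log2 level ran from 121.5 to 165.5 in knockout, highest in replicate 3, and from 90.5 to 106.8 in wildtype. The summed level of 11 erythroid markers ran from 62.8 to 71.4 in knockout and from 68.7 to 76.0 in wildtype. The part of such cells in the values below was not tested, and in sorted bulk samples a smaller number of dividing cells and less mitotic RNA per cell cannot be told apart.

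No G2/M gene passed the test, and values above and below wildtype stood side by side within the list. The median knockout minus wildtype difference over 41 members was 0.25 on the log2 scale, smaller than the spread of the list's median between replicates (0.42), against 0.07 over all 18193 genes, and 25 members (61.0%) lay above 0, where 56.6% of all genes did. In limma's fit over all genes, 0 members passed an adjusted p of 0.05 (Benjamini-Hochberg), against 0% of all genes, and the smallest adjusted p of a member was 0.89. An unadjusted p under 0.05 was found for 3 members, against 4.84% of all genes. Of these, 1 was higher in knockout, Prc1, against 2.4% of all genes, and 2 were lower, Nusap1 and Ube2c, against 2.44%. The knockout arrays were all higher than any wildtype array for 4 members, against 6.67% of all genes. They were all lower for 2 members, against 4.25%. Together that is 14.6% of members, against 10.9% of all genes, or 6 members of 41. Without knockout replicate 3 the median difference was -0.0031 and 20 members lay above 0, and without knockout replicate 1 the median was 0.48 and 32 members did.

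The width of the intervals sets how much can be read from this. The median standard error of a member's difference was 0.76, against 0.46 over all genes, and the median 95% interval reached 1.81 log2 units to either side. The 3 arrays per genotype limit the precision of every gene alike. The members also had a wider within-group spread, at a median standard deviation of 1.06 against 0.50 over all genes. For 3 members the whole interval lay within 1 log2 unit of 0, namely Stmn1, Cks2 and Cdca8. That is 7.32% of members, against 34.2% of all genes. The same held for 121 of the 136 genes of other tissues described below, at a median level of 2.95. The share over all genes thus includes dim genes. Cks2 and Cdca8 were singled out after their values were seen. The intervals are those of the chosen probe sets. A second probe set of Cks2, at a mean of 10.35 against 10.62, differed by -1.27 (95% interval -2.34 to -0.19) with overlapping groups. For the other 38 members a doubling or a halving in at least 1 direction lay within the interval.

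**Figure D1:**
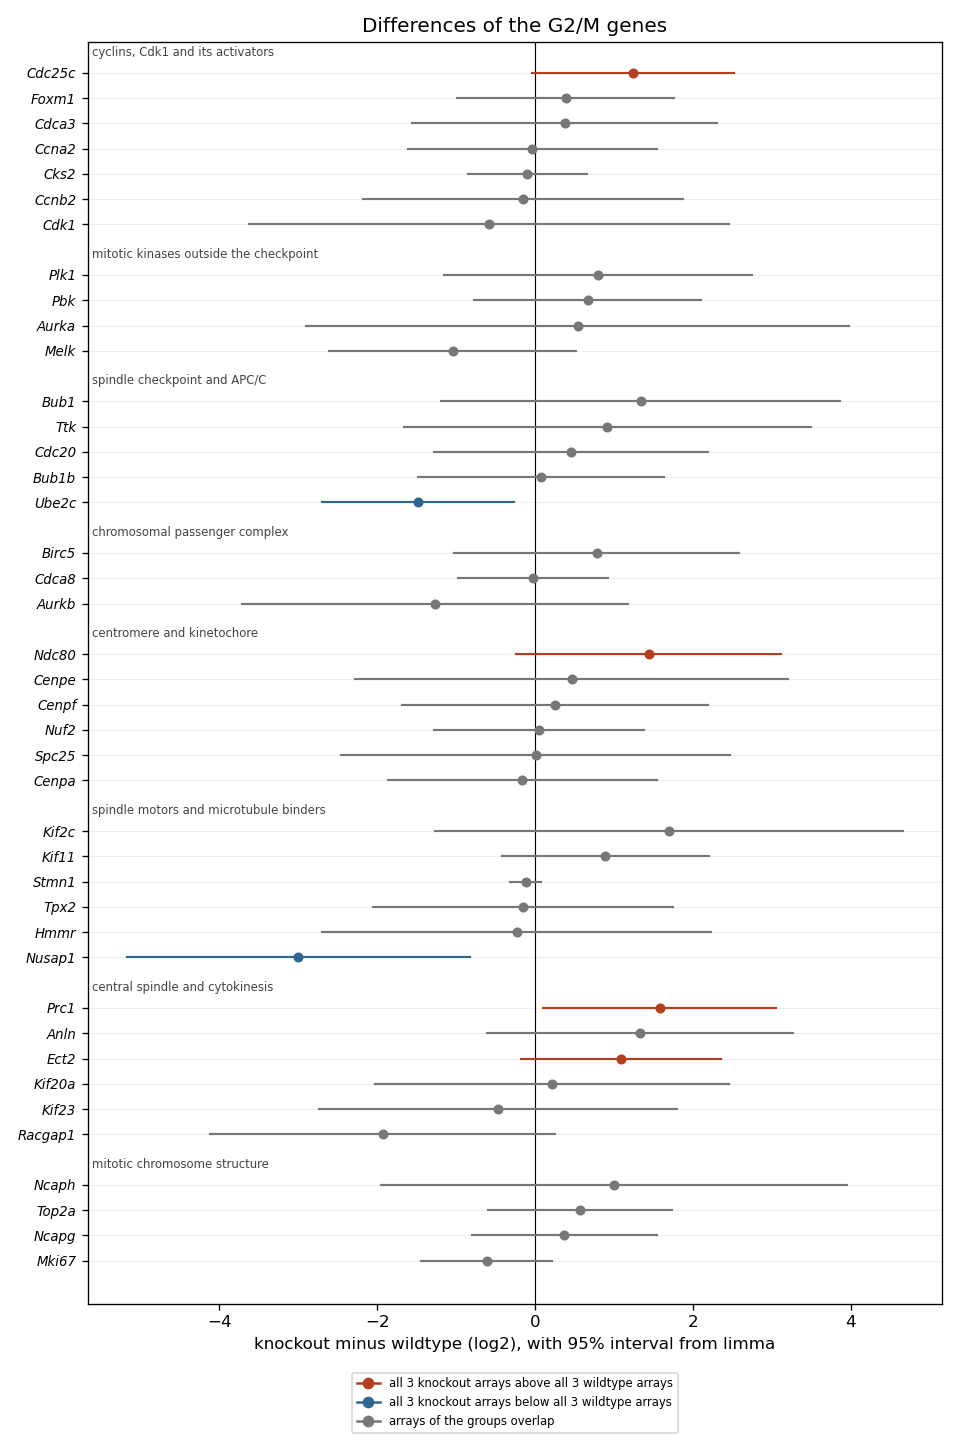
Knockout minus wildtype difference of each of the 41 G2/M genes (points, log2) with its 95% interval from limma (lines), grouped by role. Red marks the 4 genes whose knockout arrays all lay above the wildtype arrays, blue the 2 genes for which they all lay below, and grey the 35 genes whose groups overlapped.

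Transcripts of the class were read above the level of silent genes on nearly every array. That level was taken per array as the 95th percentile of 136 genes of other tissues, such as olfactory and vomeronasal receptors and keratin-associated proteins, and ran from 5.15 to 5.26 in knockout and from 4.97 to 5.01 in wildtype. Above it lay 38, 41 and 39 of the 41 members in knockout replicates 1 to 3, and 40 in each wildtype array. Over all genes the share above it ran from 56.8% to 57.0% in knockout and from 59.3% to 60.3% in wildtype. On all 6 arrays together, 35 members (85.4%) read above it, against 44.6% of all genes. The 6 members under it on some array were Aurka, Melk and Racgap1 on knockout replicate 1, Nusap1 and Anln on knockout replicate 3, Anln also on wildtype replicates 1 and 2, and Bub1 on wildtype replicate 3. Probe sets differ in their own background, so the level is a rough floor.

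Among the cyclins, Cdk1 and the factors that switch it on, 3 of 7 measured members had a difference above 0 and the median was -0.03. Cdk1, the kinase that drives entry into mitosis, read 6.15, 10.01 and 8.34 in knockout and 7.005, 10.77 and 8.49 in wildtype. Both groups spanned over 3 log2 units and overlapped, with knockout replicate 1 lowest and wildtype replicate 2 highest, and the difference was -0.59 (SE 1.28, 95% interval -3.63 to 2.46). Cdc25c, a phosphatase that removes the inhibitory phosphates of Cdk1, read 7.30, 6.03 and 7.69 in knockout and 5.54, 5.82 and 5.94 in wildtype. Every knockout array lay above every wildtype array, with 6.03 next to 5.94 at the border, and the difference was 1.24 (SE 0.54, 95% interval -0.04 to 2.52). Its probe set carries the suffix that marks probes shared with unrelated sequences. Foxm1, the transcription factor that activates this gene class, read 7.87, 7.48 and 7.06 in knockout and 7.01, 6.38 and 7.86 in wildtype, a difference of 0.39 (SE 0.58) with overlapping groups. Cyclin genes Ccna2 and Ccnb2, the Cdk1 subunit Cks2 and Cdca3, a trigger of mitotic entry, differed by -0.15 to 0.37.

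The mitotic kinases outside the spindle checkpoint had a median difference of 0.60 over 4 members, 3 of them above 0. Plk1, which acts from mitotic entry to cytokinesis, read 6.50, 7.37 and 9.33 in knockout and 6.31, 7.47 and 7.04 in wildtype. Only knockout replicate 3 lay outside the wildtype range, and the difference of 0.80 (SE 0.82) became -0.0031 without that array. Melk, a kinase abundant in dividing progenitors, read 5.12, 6.69 and 7.06 in knockout and 6.97, 7.06 and 7.98 in wildtype. Knockout replicate 3 alone lay inside the wildtype range, and the difference was -1.05 (SE 0.66). It was -0.46 without knockout replicate 1, which was under the floor. Aurka, the centrosomal Aurora kinase, differed by 0.54 and Pbk by 0.67.

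Genes of the spindle checkpoint and of the anaphase-promoting complex (APC/C), the ubiquitin ligase that ends mitosis, had a median difference of 0.45, with 4 of 5 above 0. The member below 0 was Ube2c, the ubiquitin-conjugating enzyme of the APC/C, which read 8.43, 10.34 and 9.78 in knockout and 10.99, 10.92 and 11.10 in wildtype. The wildtype arrays lay close together, and every knockout array lay below them. The difference was -0.94 without knockout replicate 1, the lowest array, and over all arrays it was -1.49 (SE 0.51, 95% interval -2.71 to -0.27), a 2.80-fold lower mean in knockout, with limma's unadjusted p at 0.024 and its Benjamini-Hochberg adjusted p at 0.89. Bub1, a checkpoint kinase of the kinetochore, read 5.70, 7.30 and 8.38 in knockout and 6.71, 6.94 and 3.72 in wildtype. Its difference of 1.34 (SE 1.06) was 0.30 without wildtype replicate 3, the array with the low reading. Ttk, Cdc20 and Bub1b differed by 0.07 to 0.91. The lowest of these was Bub1b, whose chosen probe set carries the suffix that marks probes shared between genes. Other probe sets of Bub1b gave -1.59, at a mean of 7.37, and 0.28, at a mean of 5.49.

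The chromosomal passenger complex, which corrects faulty attachments of chromosomes and starts cytokinesis, was measured through 3 genes. Aurkb, its kinase, read 7.06, 7.60 and 7.72 in knockout and 7.09, 11.03 and 8.07 in wildtype. Wildtype replicate 2 stood about 3 log2 units above the other arrays, and the difference of -1.27 (SE 1.03) was -0.12 without it. Birc5, which encodes survivin, read 6.43, 7.80 and 8.23 in knockout and 7.52, 7.09 and 5.51 in wildtype, a difference of 0.78 (SE 0.76) with overlapping groups. It was 0.18 without wildtype replicate 3 and 1.31 without knockout replicate 1. Cdca8, which encodes borealin, read between 11.42 and 12.29 in knockout and between 11.09 and 12.39 in wildtype, a difference of -0.03. The differences of these partners stood on both sides of 0, and the 95% interval of each included 0.

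Centromere and kinetochore genes had a median difference of 0.15, and 5 of 6 lay above 0. Ndc80, the microtubule-binding subunit of the kinetochore, read 8.45, 8.35 and 8.38 in knockout and 5.54, 7.69 and 7.64 in wildtype. The knockout arrays lay close together, all above wildtype, and the difference was 1.44 (SE 0.71, 95% interval -0.24 to 3.12). It was 0.73 without wildtype replicate 1, the array with the low reading. Nuf2 and Spc25, which sit in the same 4-protein complex as Ndc80, differed by 0.05 and 0.01. Cenpa, the histone H3 variant that marks centromeres, read 6.43, 6.23 and 8.03 in knockout and 6.21, 7.04 and 7.93 in wildtype, a difference of -0.16 (SE 0.72). The motor gene Cenpe and Cenpf, a kinetochore protein, differed by 0.46 and 0.25.

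The largest difference of any member lay among the spindle motors and microtubule binders, whose median was -0.14 with 2 of 6 above 0. Nusap1, which bundles microtubules around chromosomes, read 5.87, 7.93 and 5.20 in knockout and 10.10, 8.10 and 9.82 in wildtype. All knockout arrays lay below wildtype, with replicate 2 of both genotypes close at 7.93 and 8.10. The difference was -3.00 (SE 0.91, 95% interval -5.18 to -0.83), an 8.02-fold lower mean in knockout, with limma's unadjusted p at 0.014 and its Benjamini-Hochberg adjusted p at 0.89. Kif11, the motor that pushes spindle poles apart, read 8.31, 9.25 and 9.55 in knockout and 8.57, 7.66 and 8.21 in wildtype, a difference of 0.89 (SE 0.55) with knockout replicate 1 inside the wildtype range. Kif2c, a microtubule-depolymerising kinesin, read 9.52, 9.57 and 10.32 in knockout and 5.14, 9.09 and 10.10 in wildtype. Wildtype replicate 1 alone was low, and the difference of 1.70 (SE 1.25) was 0.21 without it. Hmmr, a spindle pole protein and hyaluronan receptor, read 6.85, 9.01 and 5.58 in knockout and 7.10, 8.70 and 6.34 in wildtype, a difference of -0.24 (SE 1.03), and the spindle assembly factor Tpx2 differed by -0.15.

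Stmn1 was the steadiest member. This gene encodes stathmin, which destabilises microtubules and is abundant in progenitors outside mitosis too. It read 12.90, 12.79 and 12.78 in knockout and 13.03, 12.93 and 12.88 in wildtype. The groups overlapped in 1 array each, and the difference was -0.12 (SE 0.08, 95% interval -0.32 to 0.07). Its probe set carries the suffix that marks probes shared between genes.

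Central spindle and cytokinesis genes had the highest median of the roles, 0.65, with 4 of 6 above 0. Groups did not overlap for 2 of them (33.3%), against 10.9% of all genes, both higher in knockout. Prc1, which crosslinks the microtubules of the central spindle, read 8.83, 10.51 and 10.52 in knockout and 7.77, 8.67 and 8.69 in wildtype. Knockout replicate 1 cleared the wildtype arrays narrowly, and the difference was 1.58 (SE 0.62, 95% interval 0.10 to 3.06), a 2.99-fold higher mean with limma's unadjusted p at 0.040 and its Benjamini-Hochberg adjusted p at 0.89. The chosen probe set of Prc1 carries the suffix that marks probes shared between genes, and the other probe set gave -0.07. Ect2, the exchange factor that activates RhoA at the division plane, read 7.53, 7.24 and 7.21 in knockout and 5.39, 6.48 and 6.86 in wildtype, a difference of 1.08 (SE 0.53, 95% interval -0.19 to 2.35). All knockout readings lay above wildtype, and without wildtype replicate 1, the lowest array, the difference was 0.66. Racgap1 works with Ect2 in the same step, and its values lay on the other side of wildtype. It read 4.18, 6.67 and 6.25 in knockout and 7.22, 6.57 and 9.10 in wildtype, a difference of -1.93 (SE 0.92, 95% interval -4.12 to 0.25), and knockout replicate 2 alone lay inside the wildtype range. It was -1.17 without knockout replicate 1, which was under the floor, and -1.197 without wildtype replicate 3. Kif23, the motor partner of Racgap1, read 7.01, 10.04 and 7.67 in knockout and 9.70, 8.85 and 7.58 in wildtype, a difference of -0.47 (SE 0.95). Anln, a scaffold of the contractile ring, read 5.27, 8.14 and 5.20 in knockout and 4.48, 4.87 and 5.29 in wildtype. Its difference of 1.33 (SE 0.81) rested on knockout replicate 2, without which it was 0.36. Kif20a, a motor of the central spindle, differed by 0.21.

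Genes of mitotic chromosome structure had a median difference of 0.47, with 3 of 4 above 0. Mki67, whose protein Ki-67 coats mitotic chromosomes and serves as a proliferation marker, read 10.50, 11.70 and 11.57 in knockout and 11.81, 11.63 and 12.17 in wildtype. Knockout replicate 1 lay below all other arrays, the rest overlapped, and the difference was -0.61 (SE 0.35, 95% interval -1.44 to 0.21). Without knockout replicate 1 it was -0.24. Top2a, the topoisomerase that untangles sister chromatids, read 9.06, 9.54 and 8.83 in knockout and 8.996, 8.04 and 8.68 in wildtype, a difference of 0.57 (SE 0.49). The condensin subunit genes Ncapg and Ncaph differed by 0.37 and 1.00, with Ncaph at 10.05 on knockout replicate 3 against 5.15 to 7.09 on the other arrays. Both common proliferation markers thus read well above the floor in each genotype, with differences of opposite sign inside their intervals.

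**Figure D2:**
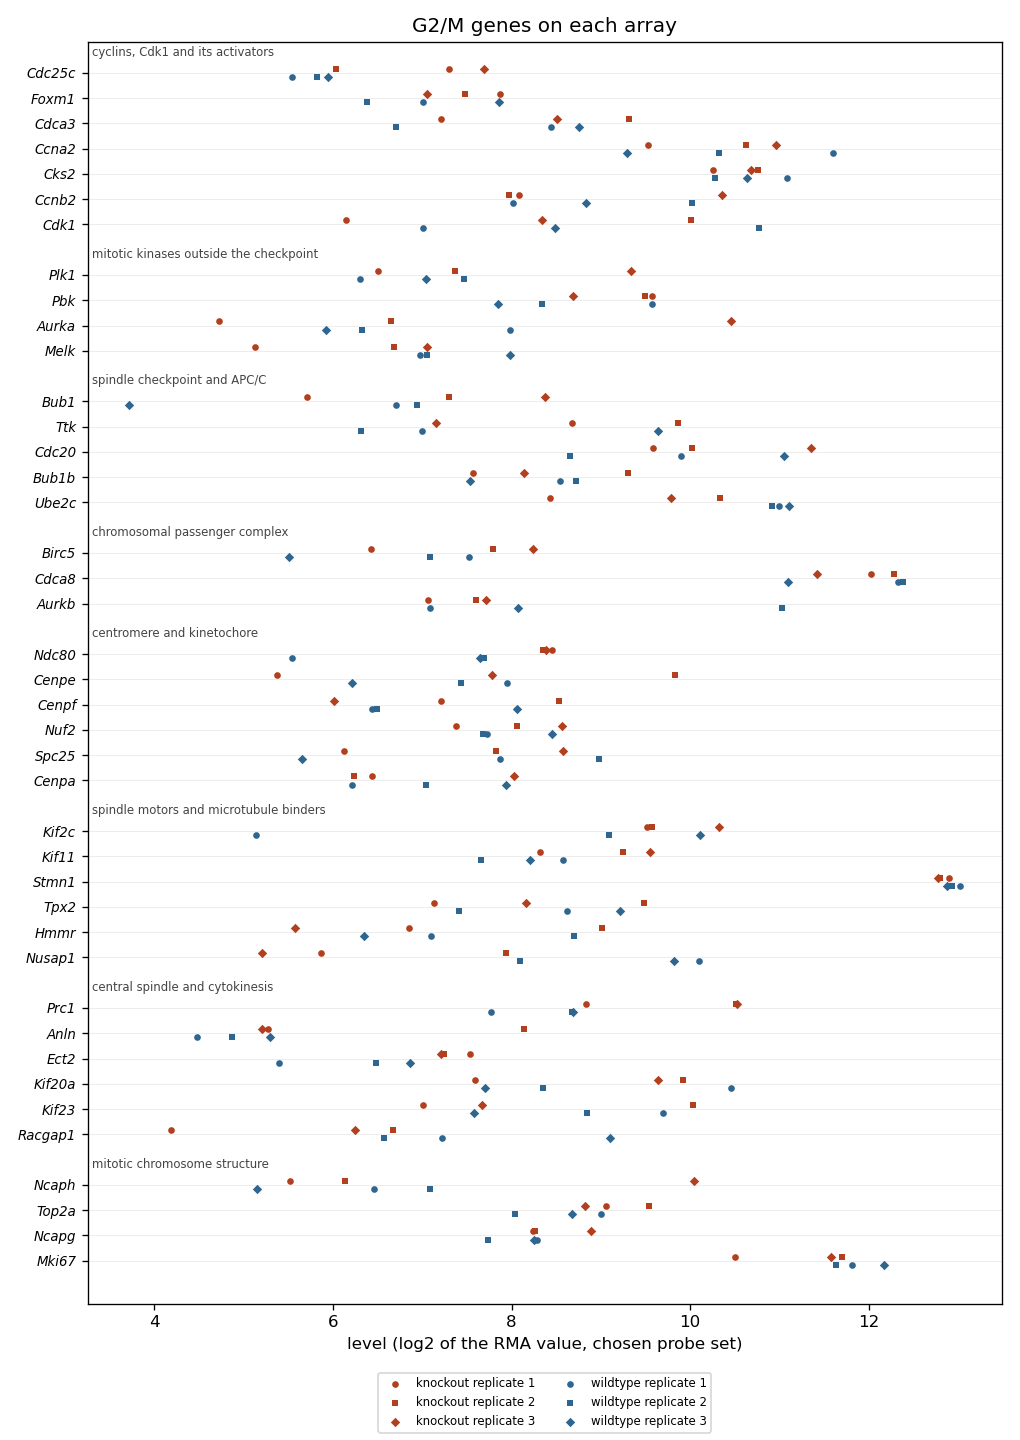
Level of each of the 41 G2/M genes on each array (log2 of the RMA value, chosen probe set), with knockout arrays in red above wildtype arrays in blue and symbols for replicates 1 to 3. Most rows show red and blue points mixed; Nusap1 and Ube2c have all red points to the left of the blue ones, and Prc1, Ect2, Ndc80 and Cdc25c to the right.

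The members varied more between arrays of the same genotype than most genes. Their median within-group standard deviation was 1.06, against 0.50 over all genes, and it was above 1 for 22 members (53.7%), against 24.2% of all genes. The other mitotic genes had 1.05 and the S-phase genes 0.80, at median levels of 7.21 and 8.53, where the G2/M genes had 8.11 and all genes 5.81. The 136 genes of other tissues had 0.21 at a median level of 2.95, so the value over all genes includes dim genes of small spread. The readings of 29 members spanned over 2 log2 units across the 6 arrays.

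The knockout arrays differed among themselves. Knockout replicate 1 gave the lowest reading of the 6 arrays for 13 of 41 members (31.7%), against 16.1% of all genes, and the members' median deviation from their own 6-array means was -0.67 there. In knockout replicates 2 and 3 it was 0.36 and 0.34, and in wildtype it was 0.14, -0.01 and -0.04. Replicate 2 exceeded replicate 1 among the knockout arrays for 33 of 41 members, and it was the lowest array for 1 member (2.44%), against 18.7% of all genes. Knockout replicate 3 was the highest array for 14 members (34.1%), close to its 31.8% of all genes. The knockout medians lay on both sides of all wildtype medians, so the genotypes overlapped on this measure. The other mitotic genes gave the same low array, with knockout replicate 1 lowest for 23 of 71 (32.4%) and at a median deviation of -0.53. For S-phase genes it was lowest for 9 of 49 (18.4%), at -0.16. Wildtype arrays also stood low for some lists. Wildtype replicate 3 was lowest for 15 of the 49 S-phase genes (30.6%), at -0.22, against 16.3% of all genes. Wildtype replicate 2 was lowest for 18 of the 71 other mitotic genes (25.4%), at -0.32, against 14.8% of all genes. The 11 stem cell markers left without Cd48, Flt3 and Cd34 had median deviations of 0.58, -0.32 and -0.80 in knockout replicates 1 to 3. In wildtype they had 0.08, 0.42 and -0.29. Over all 14 measured genes of the list these were 0.50, 0.09 and -0.77 in knockout and 0.06, 0.19 and -0.30 in wildtype. Both sets were highest in knockout replicate 1, where the G2/M genes were lowest. The neutrophil markers had median deviations of 0.77, 0.26 and 3.47 in knockout replicates 1 to 3 and of -0.74, -0.80 and -1.74 in wildtype. The part of these cells in the order of the arrays was not tested.

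**Figure D3:**
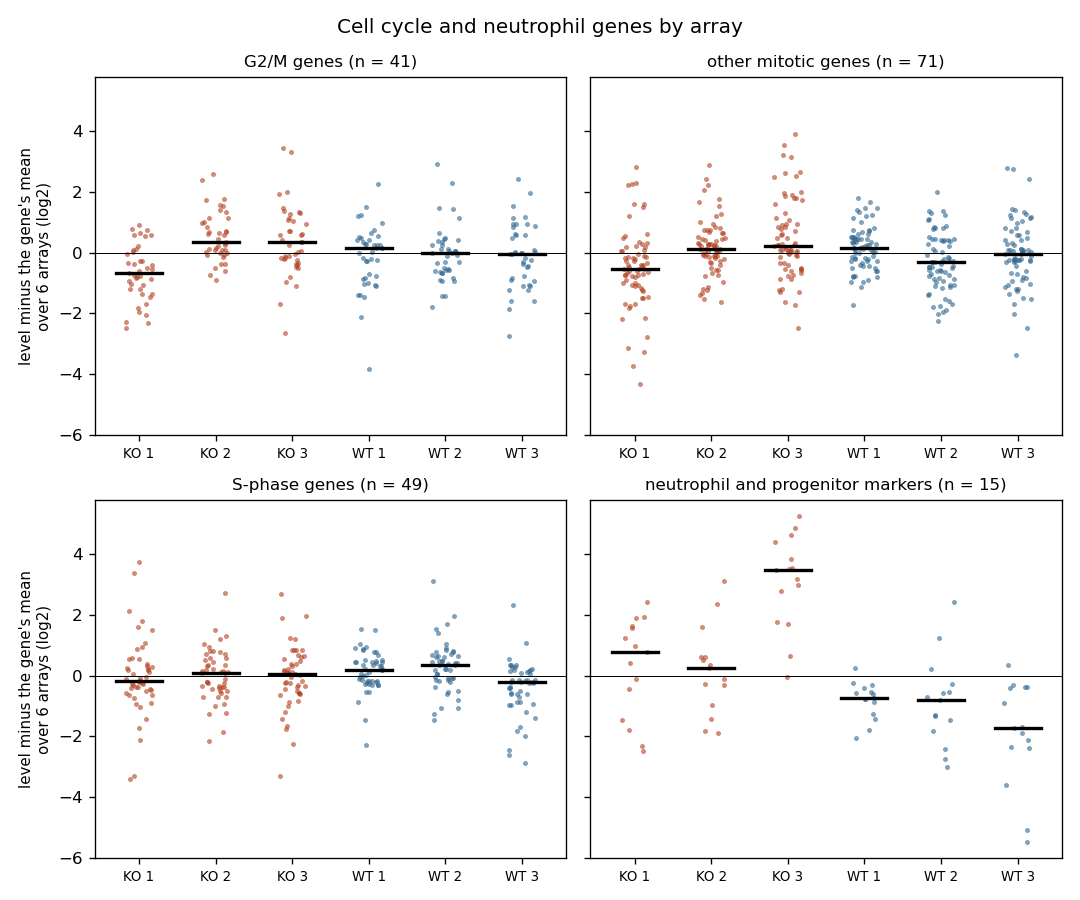
Each point is a gene's level minus its own mean over the 6 arrays (log2), by array, with knockout (KO, red) left of wildtype (WT, blue) and black bars at the medians. The G2/M and other mitotic genes sit lowest in KO 1, at -0.67 and -0.53, while the neutrophil markers sit highest in KO 3, at 3.47.

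Probe sets of the same member often gave different answers. The 41 members had 89 probe sets, up to 5 each, and 29 members had more than 1. In limma's fit over all 34945 such probe sets, 0 of the 89 passed an adjusted p of 0.05, and 6 had an unadjusted p under 0.05, where 4.68% of all probe sets did. The differences of a member's probe sets had opposite signs in 19 of 29 members (65.5%), against 58.9% of 9010 genes with several probe sets. The median gap between a member's highest and lowest difference was 1.16, against 0.77 over those genes, and it was above 1 in 20 members (69.0%), against 41.2%. The 2 brightest probe sets of a member agreed on which array was highest in 5 of 29 (17.2%), against 25.9% of those genes, and on which was lowest in 7 of 29 (24.1%), against 22.3%. In members whose 2 brightest probe sets both read above the median gene, all their probe sets together gave opposite signs in 11 of 19 (57.9%), against 65.9% of such genes. The median gap over all those probe sets was 1.48, against 1.21. Taken alone, the 2 brightest had the same sign in 11 of these 19 members (57.9%), against 58.0% of such genes. The median gap between these 2 was 1.09, against 0.65.

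The 6 members with the widest gaps show what lies behind these counts. The second probe set of Nusap1 read 4.93, 3.66 and 3.33 in knockout and 4.67, 2.92 and 3.64 in wildtype, a difference of 0.23, and it lay under the floor on every array. Cenpa had probe sets at -0.16, 0.77 and 3.02. The last of these read 8.47, 8.64 and 2.75 in knockout and 2.57, 5.24 and 2.99 in wildtype, so that it was bright on the knockout arrays 1 and 2 and dim on the third. Kif23 had probe sets at -0.47, -2.55 and 0.39, the last under the floor on every array. The middle probe set read 5.84, 5.80 and 4.21 in knockout and 7.13, 7.55 and 8.81 in wildtype without overlap, with limma's unadjusted p at 0.010 and its Benjamini-Hochberg adjusted p at 0.90. Kif11 had probe sets at 0.89, -0.36 and -1.70, and the last ran from 3.11 to 10.34 among the knockout arrays alone. Bub1 had 1.34 and -1.14, the second under the floor on 5 of 6 arrays, and Hmmr had 5 probe sets between -0.84 and 1.31.

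Of the 89 probe sets, 16 lay under the floor on at least 4 arrays. Leaving those out, a choice made after the values were seen, 22 members still had several probe sets, and the signs were opposite in 12 of them. Other members had probe sets with differences of the same sign. All 4 probe sets of Foxm1 had differences between 0.39 and 0.69, 1 of them under the floor on every array, both probe sets of Ncaph gave 1.00 and 0.84, and the 2 brighter probe sets of Racgap1 gave -1.93 and -1.77. Both probe sets of Ccna2 gave -0.03 and -0.07, and those of Stmn1 -0.12 and -0.06. Among the 6 members without overlap, Prc1 had a second probe set at -0.07 and Cdc25c had another at 0.08, both with overlapping groups and that of Cdc25c under the floor on 4 arrays. Ube2c, Ndc80 and Ect2 had no second probe set to compare. Of the 41 chosen probe sets, 20 carried no special suffix, 11 carried the suffix for transcripts of the same gene and 10 a suffix for probes shared with other sequences. These 10 were those of Aurkb, Bub1b, Cdc20, Cdc25c, Cdca8, Kif2c, Ncaph, Pbk, Prc1 and Stmn1. With the brightest probe set of the unmarked type, 31 members remained measurable, their median difference was -0.10, and 12 of them lay above 0.

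**Figure D4:**
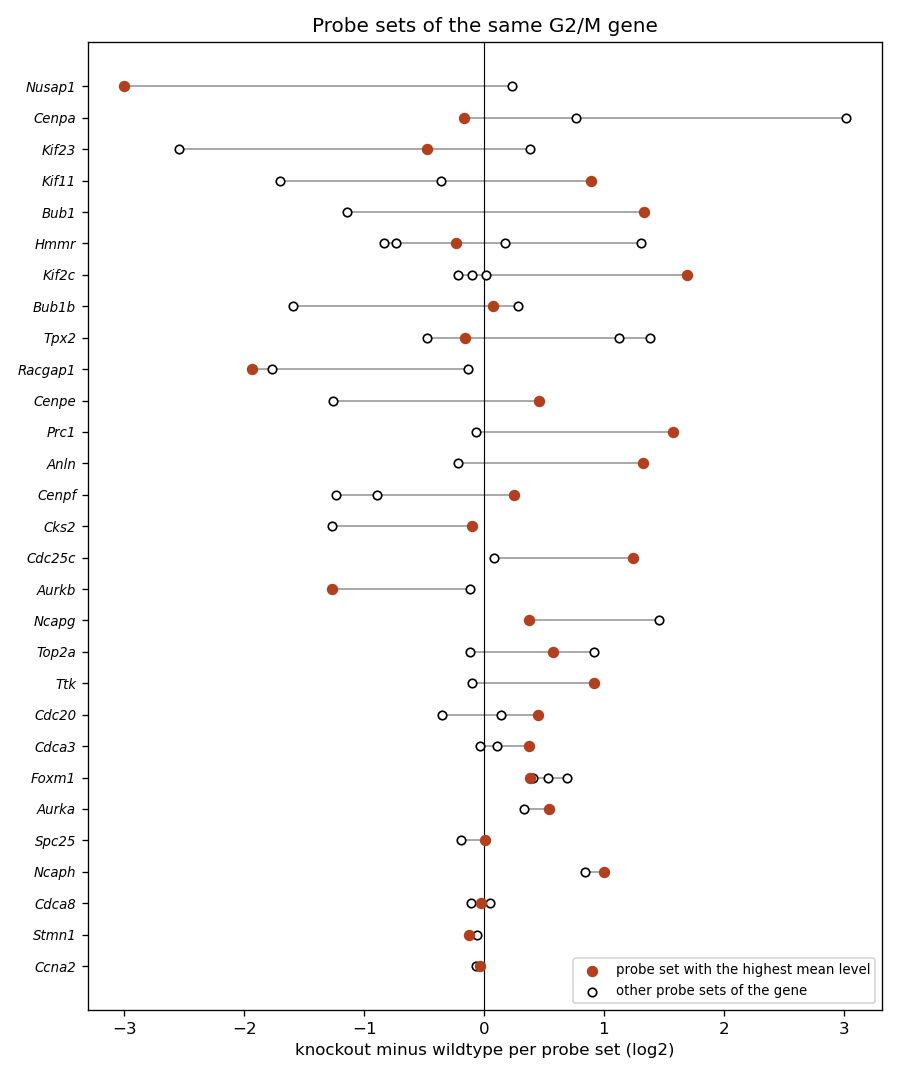
Knockout minus wildtype difference of every probe set (log2) for the 29 G2/M genes with several, ordered by the gap between their extremes. Red points are the probe sets that represent the gene and open points the others; the grey line crosses 0 in 19 genes, with the widest gap of 3.24 for Nusap1.

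Of 73 further mitotic genes listed, 71 were measured and 0 passed the adjusted threshold. Their median difference was -0.06, with 33 above 0, and the groups did not overlap for 5 higher and 5 lower genes, 14.1% in all, against 10.9% of all genes. Cenph, a kinetochore subunit, read 5.61, 6.22 and 5.41 in knockout and 7.97, 7.80 and 7.31 in wildtype, a difference of -1.94 (SE 0.46, adjusted p = 0.89 in limma). Incenp, the scaffold that binds Aurkb, read 11.73, 11.74 and 11.94 in knockout and 10.94, 10.83 and 9.42 in wildtype, a difference of 1.41 (SE 0.42, adjusted p = 0.89 in limma). The Incenp probe set carries the suffix that marks probes shared with unrelated sequences. Cenph and Incenp, named because their unadjusted p in limma was the smallest of this list, stood on opposite sides of wildtype.

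Of 52 S-phase genes, 49 were measured and 0 passed. Their median difference was 0.03, with 26 above 0, and the groups did not overlap for 2 genes (4.08%), against 10.9% of all genes. Pcna, the sliding clamp of DNA polymerases, read 11.20, 11.17 and 10.54 in knockout and 11.90, 11.90 and 11.71 in wildtype, a difference of -0.86 (SE 0.24, adjusted p = 0.89 in limma) without overlap. Of 22 regulators of G2/M transcription and mitotic entry, 21 were measured and 0 passed, with a median of -0.24 and 6 above 0. Their groups did not overlap for 2 genes (9.52%), against 10.9% of all genes. Mybl2, which encodes B-MYB, read 8.12, 6.51 and 8.002 in knockout and 6.27, 6.63 and 5.09 in wildtype, a difference of 1.55 (SE 0.67). Wee1, the kinase that holds Cdk1 inactive, read 8.12, 9.61 and 8.01 in knockout and 9.87, 9.92 and 9.73 in wildtype, a difference of -1.26 (SE 0.55). Knockout arrays lay below wildtype for Wee1, whereas for Mybl2 knockout replicate 2 lay inside the wildtype range.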

How the data were processed

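For 45037 probe sets the authors deposited log2 values on each array, made with RMA. The submitters' processing notes also list Partek and Affymetrix Expression Console, with no version or setting. Per the labels' protocols, RNA was amplified with a whole-transcriptome kit for small amounts, a step that can add spread between arrays. The platform annotation named 1 gene for 34945 probe sets, several for 932 and none for 9160. The probe set with the highest mean stood for each of 18193 genes. Arrays were grouped by title. Knockout minus wildtype was fitted in limma 3.58.1 (R 4.3.3) with a mean-variance trend over all genes, two-sided, and adjusted by Benjamini-Hochberg at 0.05; the fit was checked on simulated data. Members and lists were chosen with earlier results of these data known, so no count over them is independent support. Full values are given for members without overlap between groups and up to 10 further members with the smallest unadjusted p. They are also given for the 6 with the widest probe set gap and for 8 role examples, of which Ccnb1 had no value. Up to 2 genes per other list are named by smallest p. In the stem cell list Kit, Slamf1, Cd48, Cd34 and Procr were named outside this rule. Same-numbered arrays did not deviate together (correlations -0.024, -0.0093 and -0.011 across genes). Promoters came from RefSeq tables of GRCm38.p6. A planned protein motif search was not made. Alternatives varied the moderation, probe set, filter, scaling, block and arrays left out. Tables and plots were made in Python 3.11.15 with numpy 2.4.6, pandas 2.3.3 and matplotlib 3.10.9.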

Additional observations from a re-analysis of the deposited data

How the results depend on the processing

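Under the 14 alternatives run for the fit, 0 G2/M genes passed the adjusted threshold, and 0 genes passed over the whole table except when probe sets were averaged per gene, where 1 did; that gene was no member. The members' median difference ran from -0.0031 to 0.48 when single arrays were left out and stayed within the spread between replicates (0.42) of 0.25 under all 14. It was below 0 without knockout replicate 3 and, at -0.10, with probe sets of the unmarked type. Members at an unadjusted p under 0.05 numbered 3 in the main analysis, 5 without the mean-variance trend and 1 without wildtype replicate 1 or wildtype replicate 3. With the filter on level 528 genes had such a p, against 880, from fewer genes tested. With the replicate block, 0 genes passed, and the members' median was 0.25; the block changed no call of a member. Of 23 named members, 15 kept their sign under every alternative run. Not every alternative covered them all. Prc1, Cdc25c, Ect2, Racgap1, Aurkb and Birc5, all among the 15, had no probe set of the unmarked type. Anln, also among the 15, was removed by the filter on level. With the mean of probe sets Kif11 was at -0.39 and Cenpa at 1.21, with the unmarked type Kif2c was at -0.22, Top2a at -0.12 and Cenpa at 0.77, and with array weights Hmmr was at 0.039. With single arrays left out, Cenpa ran from -0.73 to 0.27, Kif23 from -1.37 to 0.14, Hmmr from -1.17 to 0.55, Cdk1 from -1.51 to 0.42 and Plk1 from -0.0031 to 1.41. The same ranges were -2.09 to -0.12 for Aurkb, 0.30 to 2.05 for Bub1, 0.21 to 2.69 for Kif2c, 0.31 to 0.79 for Top2a, 0.035 to 0.77 for Foxm1 and 0.18 to 1.31 for Birc5. Without probe sets under the floor on at least 4 arrays, an alternative chosen after seeing the data, signs were opposite in 12 members, against 19, from fewer probe sets compared. Moving the floor to the 90th or 99th percentile kept every array's count of members above it within 1.5 times. The causes of these changes were not tested. No detection calls were used, so how far dim probe sets stood above background is known only through the floor.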
